A study of Mus musculus with 2 samples.

Results

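Dividing monocytes were spleen cells that carried the transcripts of classical monocytes together with those of cell division. They were selected on UMIs, the molecules counted in each cell. A member had at least 10 UMIs of Ly6c2, Ccr2, F13a1, Fn1 and Vcan together, at least 1 UMI of Csf1r, and at least 5 UMIs of Top2a, Mki67, Ube2c, Birc5, Cenpf and Nusap1 together. It also had at most 2 UMIs of Siglech. H2-Aa, H2-Ab1 and H2-Eb1 made up less than 0.3% of its UMIs, S100a8 and S100a9 less than 1%, and the azurophil granule genes Elane, Mpo, Prtn3 and Ctsg less than 0.5%. These values chose the members, so they are given only as a description. The rule found 758 cells among the 21573 kept cells with at least 500 genes, of 24292 deposited cells in all. The wild-type library held 69 of them and the SCD library 689.

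The study asked how hemolysis in sickle cell disease (SCD) alters spleen myeloid cells, using the Berkeley mouse, whose red cells carry human globin. Spleen suspensions were lysed of red cells and enriched for dendritic cells by removal of unwanted cells with magnetic beads, then profiled by droplet single-cell RNA sequencing from the 3′ end of transcripts. This negative selection was not made for monocytes and can set the shares of every cell type below. Each group was 1 mouse aged 12 to 16 weeks with no treatment given. Both mice were described as homozygous for the mouse alpha-globin deletion Hbatm1Paz and as carriers of the human globin transgene Tg(HBA-HBBs)41Paz. The control called wild-type was hemizygous for the transgene and heterozygous for the mouse beta-globin deletion Hbbtm1Tow, and was non-sickling. The SCD mouse was homozygous for both and sickling. With 1 sample per group no difference has a replicate check and none was tested. All intervals are exact 95% intervals that cover counting error only, since cells of 1 mouse are not replicates.

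Classical monocytes arise in the bone marrow from granulocyte-monocyte progenitors through committed precursors that still divide. They carry Csf1r, the receptor for M-CSF, and Ccr2, the chemokine receptor that lets them leave the marrow. When division stops, they circulate or wait in the spleen. There they can become macrophages, dendritic cells or Cx3cr1-high non-classical monocytes. The spleen of mice with hemolytic anemia can itself become a site of blood formation.

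The libraries held 97880318 UMIs in the wild-type and 189688217 in the SCD sample, with medians of 4991 and 8596 UMIs per cell. The SCD library was thus sequenced to more UMIs per cell over all cells, but not over the members. Wild-type members had a median of 24892 UMIs (range 7000 to 99920) and SCD members 23199 (range 4364 to 156692). Both libraries shared 88 cell barcodes, none of which belonged to a member. Scrublet called 1 of 69 wild-type members and 9 of 689 SCD members doublets, and these were kept.

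The genes of the rule give the members' profile. Ly6c2, which encodes the surface antigen used to define classical monocytes, stood at 2328 counts per 1000000 UMIs (CPM) in wild-type and 2588 CPM in SCD members. Ccr2 was at 667 and 926 CPM, and the transglutaminase gene F13a1 at 985 and 944 CPM. Csf1r stood at 175 CPM in wild-type and 184 CPM in SCD members. Among division genes, Top2a, which encodes the topoisomerase that untangles replicated DNA, reached 854 CPM in wild-type and 704 CPM in SCD members. The median member held 81 division UMIs in the wild-type (range 5 to 331) and 48 in the SCD library (range 5 to 379). Ccnb2, a mitotic cyclin outside the rule, was found in 89.9% of wild-type and 90.6% of SCD members. It stood at 204 CPM (wild-type) and 252 CPM (SCD) in members, but at 1.26 and 7.73 CPM in non-dividing monocytes. F13a1, Ccr2, Csf1r and Top2a are genes of the rule, so the selection set their presence. Of the 5 marker genes of the label, only Ccnb2 lay outside the rule, and it was present too.

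Late division genes are known for promoters with CCAAT boxes, which bind NF-Y, and cell cycle homology elements. The 150 bases before the annotated start of 4 of these genes are shown from RefSeq on GRCm38.p6, each 5′ to 3′ on the gene's own strand. Capitals mark CCAAT or its reverse ATTGG, and TTTGAA, the core letters of the homology element, or its reverse TTCAAA. Ccnb2 lies at chr9:70421555-70421704 (minus strand), Top2a at chr11:99024190-99024339 (minus strand), Ube2c at chr2:164769779-164769928 (plus strand) and Cdk1 at chr10:69352913-69353062 (minus strand).
Ccnb2: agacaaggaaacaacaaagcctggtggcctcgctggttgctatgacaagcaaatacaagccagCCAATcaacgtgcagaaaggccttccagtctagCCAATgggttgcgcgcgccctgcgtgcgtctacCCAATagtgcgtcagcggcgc
Top2a: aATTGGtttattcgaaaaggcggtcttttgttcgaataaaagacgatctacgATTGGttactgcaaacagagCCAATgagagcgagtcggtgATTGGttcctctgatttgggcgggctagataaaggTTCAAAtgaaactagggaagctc
Ube2c: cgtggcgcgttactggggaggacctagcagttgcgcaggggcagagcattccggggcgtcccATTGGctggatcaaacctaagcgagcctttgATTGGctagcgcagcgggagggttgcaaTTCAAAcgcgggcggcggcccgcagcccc
Cdk1: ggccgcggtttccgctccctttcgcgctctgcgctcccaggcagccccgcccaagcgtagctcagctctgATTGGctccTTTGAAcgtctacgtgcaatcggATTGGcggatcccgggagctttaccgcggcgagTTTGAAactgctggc

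Ccnb2 held 3 CCAAT matches and no TTTGAA match in these letters, and Top2a held 4 and 1. The same stretch before Birc5 and Nusap1, division genes of the rule that are not shown, held no match of either motif. Over the 250 bases before the start, CCAAT was found on either strand in 77.8% of 54 promoters of the late cell cycle list (48 of 56 genes matched by symbol). It was in 61.0% of 41 S phase promoters, 25.9% of 27 monocyte identity promoters and 33.8% of all 32851 promoters in the table. TTTGAA was found in 38.9% of late promoters, 14.6% of S phase, 25.9% of monocyte identity and 16.0% of all promoters. Neighbouring matches of both motifs can share 1 base. A match describes the sequence and is not evidence of binding.

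Dividing monocytes made up a larger share of the SCD spleen cells. They were 0.710% of kept wild-type cells (interval 0.553% to 0.898%) and 5.81% of kept SCD cells (interval 5.40% to 6.25%), a ratio of 8.19 (interval 6.38 to 10.6). The whole monocyte gate, meaning cells that passed every part of the rule except division, held 594 wild-type cells (6.11%) and 1438 SCD cells (12.1%), a ratio of 1.98 (interval 1.80 to 2.19). Within the gate, 11.6% of wild-type cells (interval 9.15% to 14.5%) and 47.9% of SCD cells (interval 45.3% to 50.5%) were members. That ratio was 4.12 (interval 3.22 to 5.36). The intervals of the 2 libraries did not overlap, for the kept cells or for the gate. The kept-cell ratio depends on which cells are counted in the denominator, since fewer wild-type cells are deep. Among the 4933 wild-type and 8876 SCD kept cells with at least 5000 UMIs, members were 1.40% and 7.75%, a ratio of 5.54 (interval 4.32 to 7.21). When the rule was applied after these cells were thinned to 5000 UMIs, 29 and 295 of them passed, or 0.588% and 3.32%, a ratio of 5.65 (interval 3.85 to 8.59). Over all kept cells these 29 and 295 cells give a ratio of 8.34 (interval 5.69 to 12.7).

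The spread of division UMIs over the gate differed in shape between the libraries. In the wild-type gate 86.0% of cells had 0 or 1 division UMI, 2.36% had 2 to 4 and 4.55% had 100 or more. In the SCD gate 35.1% had 0 or 1, 17.0% had 2 to 4 and 15.4% had 100 or more. The wild-type gate therefore held few cells on either side of the threshold, with 1 cell at 4 UMIs and 2 at 5 UMIs. The SCD gate held 43 cells at 4 UMIs and 41 at 5 UMIs, so its members run on into the cells just outside. Among the 689 SCD members, 29.6% had 5 to 19 division UMIs (interval 26.2% to 33.2%), against 17.4% of the 69 wild-type members (interval 9.32% to 28.4%).

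**Figure D1:**
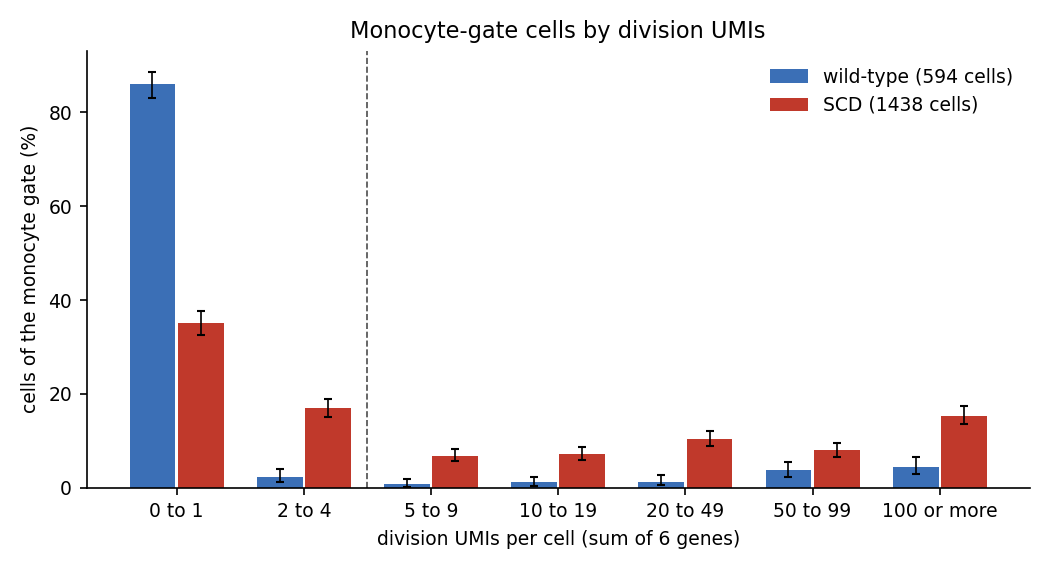
Share of monocyte-gate cells (vertical axis, percent) in each bin of division UMIs (horizontal axis), for the wild-type and the SCD library, with exact 95% binomial intervals. The dashed line is the threshold of 5 UMIs, and SCD shares lie above wild-type shares in every bin from 2 to 4 UMIs upward, while wild-type cells are concentrated at 0 or 1.

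The members nearest the other limits of the rule are given as a description. Exactly 1 UMI of Csf1r, the least the rule allows, was held by 5 of 69 wild-type and 52 of 689 SCD members. The member with the fewest monocyte UMIs had 18 in the wild-type and 11 in the SCD library, and the nearest cells that failed only this limit had 4 and 7. For the S100a8 and S100a9 limit the nearest members stood at 0.801% (wild-type) and 0.989% (SCD), and the nearest cells outside at 1.33% and 1.31%. For the azurophil limit these were 0.438% and 0.493% inside and 0.609% and 0.503% outside. The MHC class II limit had 0.0785% and 0.293% inside, and 0.532% and 0.323% outside.

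More dividing cells were not particular to the monocyte gate. Over all kept cells, 6.19% of wild-type and 24.5% of SCD cells had at least 5 division UMIs, a ratio of 3.96 (interval 3.62 to 4.33). Members were 11.5% of those cells in the wild-type (interval 9.03% to 14.3%) and 23.7% in the SCD library (interval 22.2% to 25.3%). Among neutrophils, taken as cells with at least 5% of UMIs from S100a8 and S100a9, the same threshold was passed by 2.31% in the wild-type and 13.7% in the SCD library. Depth differed there, with medians of 2573 UMIs per neutrophil in the wild-type and 7418 in the SCD library. After thinning to 5000 UMIs it was passed by 9.18% of 730 wild-type neutrophils (interval 7.18% to 11.5%) and 14.7% of 5114 SCD neutrophils (interval 13.7% to 15.7%), a ratio of 1.60 (interval 1.25 to 2.09). The same neutrophils gave 12.3% and 19.7% before this thinning, which was added after the values had been seen. Over all thinned kept cells the shares were 8.19% of 4933 in the wild-type and 23.9% of 8876 in the SCD library, a ratio of 2.92 (interval 2.62 to 3.25), and 11.1% and 32.3% before thinning. In a spleen sample a share describes the mix of cells and gives no number of cells per spleen.

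Members with mainly S phase transcripts made up a similar share in both mice, within wide intervals. S phase, in which DNA is copied, was read from 46 genes and the later G2 and M phases from 50 genes that leave out those of the rule. After thinning each member to 5000 UMIs, 11 of 69 wild-type members (15.9%, interval 8.24% to 26.7%) and 107 of 688 SCD members (15.6%, interval 12.9% to 18.5%) had more S phase than late UMIs. Without thinning, the shares were 14.5% and 15.8%. The rule asks for late genes and so fixes in part how many early cells can enter. Where the rule itself was applied to thinned cells, these shares were 6.90% in the wild-type and 8.14% in the SCD library. A further background is the non-dividing class, in which 7.20% and 6.61% of thinned cells had more S phase UMIs.

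The thinned wild-type members had a median of 19 S phase UMIs (range 0 to 57), against 13.5 in SCD members (range 0 to 69). The median of late UMIs was 64 in the wild-type (range 10 to 133) and 58 in the SCD library (range 1 to 150). Replication-dependent histone UMIs, which come from genes read in S phase, had a median of 20 in wild-type members and 4 in SCD members, with interquartile ranges of 2 to 36 and 1 to 46. Both distributions thus reach from cells almost without histone UMIs to cells rich in them, and the ranges overlap. At least 10 histone UMIs were found in 58.0% of wild-type members (interval 45.5% to 69.8%) and 40.6% of SCD members (interval 36.9% to 44.3%). Fewer than 10 S phase UMIs together with fewer than 20 late UMIs were found in 2 of 69 wild-type members (2.90%, interval 0.353% to 10.1%) and 61 of 688 SCD members (8.87%, interval 6.85% to 11.2%). These 3 limits were chosen after the values had been seen.

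**Figure D2:**
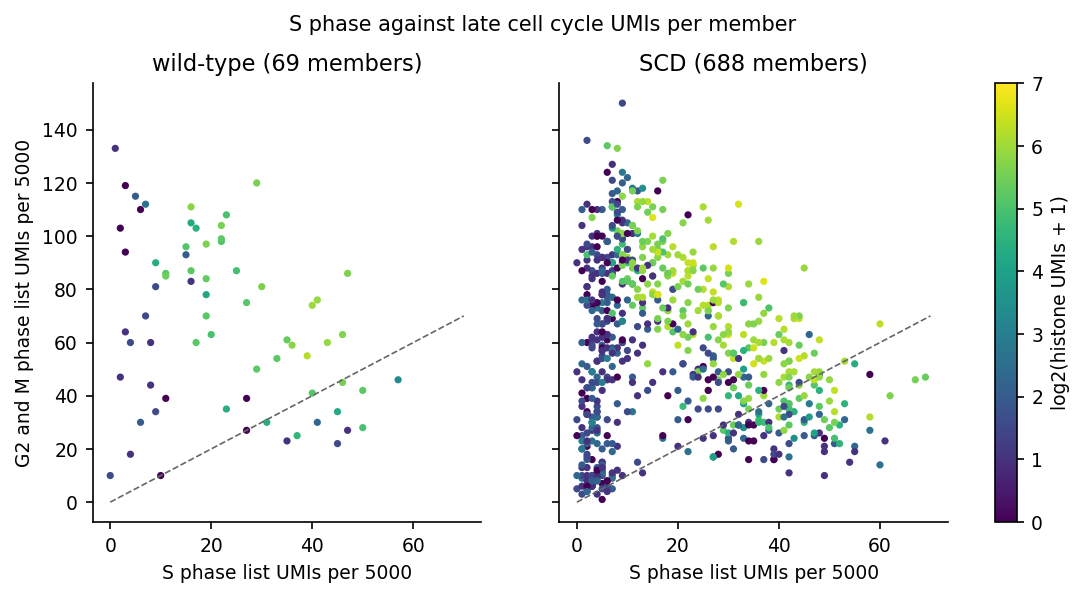
Each point is 1 member thinned to 5000 UMIs, with its S phase UMIs on the horizontal axis, its late (G2 and M phase) UMIs on the vertical axis and its histone UMIs as colour, as log2 of the UMIs plus 1, in a panel for each library. The dashed line marks equal S phase and late UMIs, below which lie 11 wild-type and 107 SCD members, and near the origin, with fewer than 10 S phase and 20 late UMIs, lie 2 wild-type and 61 SCD members.

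Across members, S phase UMIs went with histone UMIs, with a Spearman correlation of 0.56 over 69 wild-type cells and 0.48 over 688 SCD cells. S phase and late UMIs were not positively related (-0.34 and -0.09). Division UMIs of the rule were nearly unrelated to its monocyte UMIs, at 0.12 and -0.01. The points share a library, each has the same number of UMIs after thinning, and lists compete for that fixed number, so these values are descriptions.

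The word precursor in the label was checked against progenitor genes. The azurophil granule limit of the rule leaves out dividing cells rich in Ms4a3, described below, so the low share of that gene in members is in part fixed by the selection. Kit, the stem cell factor receptor, had a UMI in 4.35% of thinned wild-type members (interval 0.906% to 12.2%) and 1.16% of SCD members (interval 0.503% to 2.28%). Neutrophils of the same depth, some of which were dividing too, had it in 8.49% (interval 6.57% to 10.8%) and 5.10% (interval 4.52% to 5.74%), so the wild-type intervals overlap and the SCD intervals do not. Of its UMIs in all members, 44 in the wild-type and 102 in the SCD library lay in the erythroid-marked members described below, and 4 and 27 in the others. Non-dividing monocytes had it in 0.2% and 0.401% of thinned cells. Ms4a3, which marks granulocyte-monocyte progenitors, had a UMI in 1.45% and 3.78% of members against 8.08% and 11.9% of neutrophils, a lineage in which it is expressed early, and none of 500 wild-type (interval up to 0.735%) and 1.40% of SCD non-dividing monocytes. Without thinning, Kit UMIs were in 14.5% of wild-type and 5.22% of SCD members and Ms4a3 UMIs in 5.80% and 12.5%. Neutrophils had median depths of 2573 and 7418 UMIs, and those with fewer than 5000 UMIs were left out of the thinned shares.

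Cd34, a surface glycoprotein of early progenitors, was found in a minority of members. It had a UMI in 7.25% of thinned wild-type members (interval 2.39% to 16.1%) and 3.34% of SCD members (interval 2.13% to 4.97%), against 0.137% and 0.587% of neutrophils and 0.6% and 0.401% of non-dividing monocytes. Without thinning, the shares in members were 30.4% and 13.6%. Flt3, a receptor of early progenitors and dendritic cell precursors, was in 7.25% and 3.78% of thinned members against 6.03% and 1.49% of neutrophils. Non-dividing monocytes had it in 8.8% of thinned wild-type cells (interval 6.47% to 11.6%) and 3.21% of SCD cells (interval 1.84% to 5.15%), which overlap the intervals in members, 2.39% to 16.1% and 2.48% to 5.49%. Without thinning, 17.4% of wild-type and 9.29% of SCD members had a UMI. Klf4, a transcription factor needed for monocytes, was in 73.9% and 76.0% of members and 5.48% and 2.68% of neutrophils. Myb, a transcription factor of dividing progenitors, had a UMI in 26.1% of thinned wild-type members (interval 16.3% to 38.1%) and 13.95% of SCD members (interval 11.5% to 16.8%). That compares with 1.4% and 2.20% of non-dividing monocytes and 16.0% and 16.4% of neutrophils, and without thinning with 50.7% and 37.0% of members. The cells are called dividing monocytes below.

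Dividing cells with more progenitor transcripts lay just outside the rule. Cells that failed only the azurophil granule limit were 10 in the wild-type (0.103% of kept cells) and 221 in the SCD library (1.86%), a ratio of 18.1 (interval 9.67 to 38.3). Leaving out 2 erythroid-marked SCD cells, this class had Ms4a3 at 277 CPM (10 wild-type cells) and 322 CPM (219 SCD cells), and a UMI of it in 5 of 10 and in 58.9% of cells after thinning. Members without erythroid marking had Ms4a3 at 3.83 CPM (wild-type) and 10.9 CPM (SCD). Cd34 reached 74.6 CPM and 56.6 CPM in the azurophil-rich class. The monocyte identity list of 30 genes summed to 14987 and 13706 CPM there, against 34481 and 34987 CPM in members without erythroid marking. Cells that failed only the S100a8 and S100a9 limit were 8 (0.0823%) in the wild-type and 141 (1.19%) in the SCD library, a ratio of 14.4 (interval 7.13 to 34.1).

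When gate cells were ordered by division UMIs, the summed CPM of the monocyte identity list was lower in each further class of both libraries, from 64253 to 32328 CPM in the wild-type and from 60796 to 32235 CPM in SCD cells. The classes are 0 or 1, 2 to 4, 5 to 19, 20 to 99, and 100 or more UMIs, without the erythroid-marked members. Because depth differs between them and they were set by the rule's own genes, the values are a description. Lyz2, the macrophage lysozyme, stood at 29464, 23586, 15093, 13796 and 11198 CPM over these classes in the wild-type. In the SCD library it was at 25934, 22390, 16676, 13423 and 11936 CPM. Apoe, the lipid carrier, was at 2601 and 1862 CPM in the first 2 classes of wild-type cells and at 9.72, 27.9 and 5.33 CPM in the other 3. In the SCD library it stood at 1271, 436, 81.9, 39.4 and 21.5 CPM, so cells with 2 to 4 division UMIs lay between.

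Cx3cr1, the fractalkine receptor of patrolling monocytes, was at 597 CPM in wild-type and 413 CPM in SCD cells with 0 or 1 division UMI, and at 102 and 206 CPM in cells with 5 to 19. It was at 90.4 and 116 CPM in cells with 20 to 99 and at 189 and 119 CPM in those with 100 or more, so the wild-type order was not a steady one. A UMI of it was in 5 of 12 thinned wild-type members with 5 to 19 division UMIs (interval 15.2% to 72.3%). It was in 12 of 27 with 20 to 99 (interval 25.5% to 64.7%) and 16 of 24 with 100 or more (interval 44.7% to 84.4%). In a separate thinning, the 63 wild-type members without erythroid marking gave 42.9%, so these shares vary between thinnings. Over all members, a further thinning found Cx3cr1 in 42.0% of wild-type and 43.2% of SCD members, against 89.4% and 80.6% of non-dividing monocytes. Irf8, a transcription factor that directs progenitors to monocytes, was not lower in the class richest in division UMIs. It stood at 379 CPM in the wild-type class with 0 or 1 division UMI and 643 CPM in that with 100 or more, and at 303 and 502 CPM in the SCD library. The azurophil-rich class had 751 and 615 CPM of it. Myb was at 3.25 CPM in wild-type cells with 0 or 1 division UMI and 42.6 CPM in those with 100 or more, and at 5.88 and 30.3 CPM in the SCD library.

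**Figure D3:**
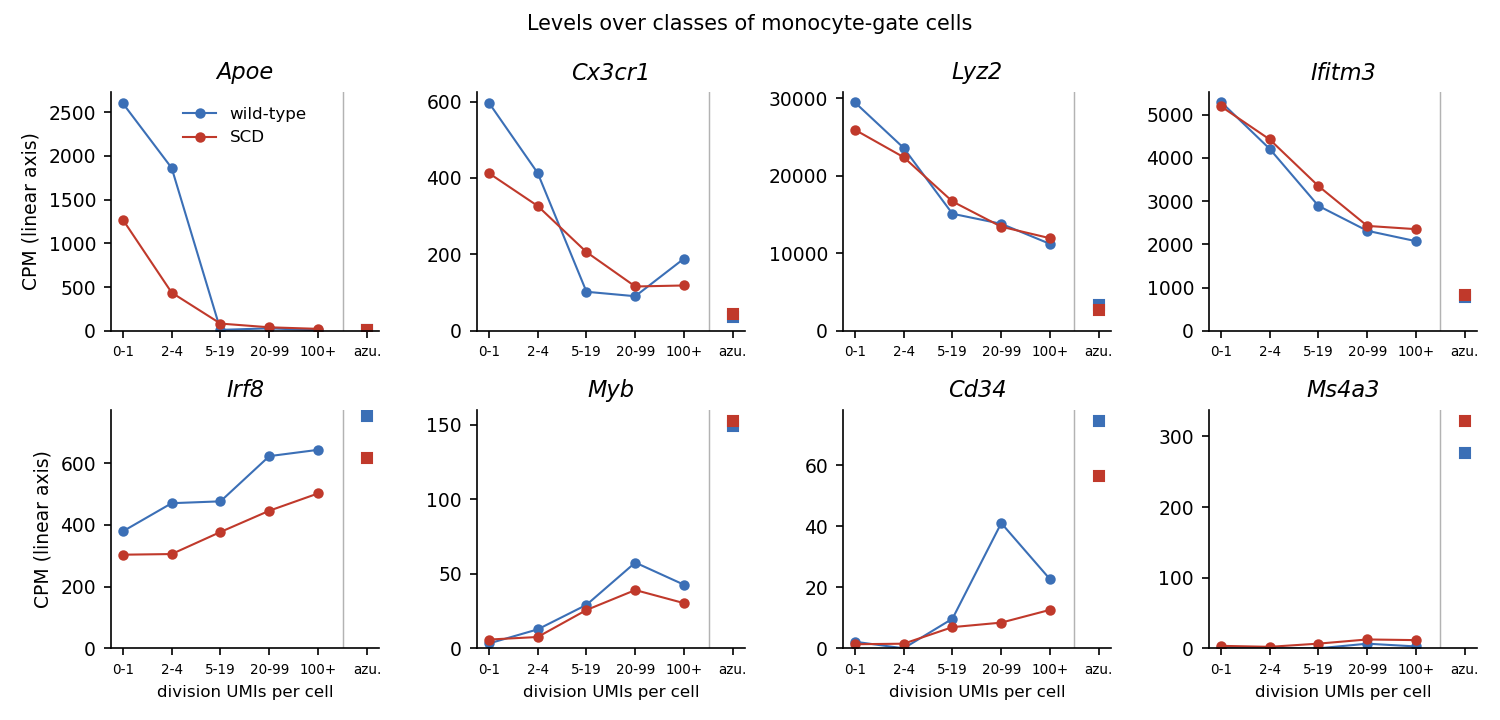
CPM of 8 genes (vertical axes) over monocyte-gate cells by class of division UMIs (horizontal axes), with squares for cells that failed only the azurophil limit (azu.), for both libraries and without erythroid-marked members. Lyz2, Apoe and Cx3cr1 are highest in the class with 0 or 1 division UMI, whereas Ms4a3, Myb and Cd34 are highest in the azurophil-rich cells, at 277, 149 and 74.6 CPM in the wild-type library.

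Some members also carried erythroid transcripts. At least 20 UMIs of a 12-gene erythroid list were found in 6 of 69 wild-type members (8.70%) and 20 of 689 SCD members (2.90%). These cells were large, with medians of 72367 and 89311 UMIs, and held 21.5% of all wild-type and 10.0% of all SCD member UMIs. Car1, a carbonic anhydrase of erythroid progenitors, stood at 3168 and 2728 CPM in them and at 9.58 and 18.1 CPM in the other members. Lyz2 stood at 4587 and 3135 CPM in the marked cells and 12720 and 13448 CPM in the others. Their median monocyte sum was 41 and 77 UMIs, against 163 and 151 UMIs in the others. Scrublet called 1 of the 6 and 7 of the 20 doublets. Where these mixed profiles come from was not tested, and several results are also given without them.

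Few genes differed 2-fold between the members of both mice, and how many depends on the processing. Counts were summed over the members of each library, and 3315 genes had at least 50 CPM and 20 UMIs in 1 of them. Of these, 15 were at least 2-fold higher in SCD members (0.452%) and 9 at least 2-fold lower (0.271%), on log2 of CPM plus 5. A gene could reach the minimum through the library where it was higher, which favours both counts, so they are descriptions. Trem2 and Ms4a6d, for example, reached the minimum CPM in SCD members only, and Vamp5 and Cox6b2 in wild-type members only. Without the CPM minimum 39 genes were higher and 38 lower, and with the rule applied after thinning 96 and 19, where the 29 wild-type cells held 145000 UMIs in all. The median log2 difference of all 3315 genes was -0.04. In non-dividing monocytes 0.683% of 3220 genes were at least 2-fold higher and 1.52% at least 2-fold lower in SCD cells. Among the 15 were 2 genes of the rule, Prtn3 at 339 CPM in wild-type and 814 CPM in SCD members and Vcan at 57.1 and 153 CPM. Of the 12 highest other genes 11 are named below, and the gene after them was Camk2d, at 29.6 CPM in wild-type and 65.9 CPM in SCD members.

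Genes of neutrophil specific granules led the higher genes. Camp, which encodes cathelicidin, stood at 24.1 CPM in wild-type and 201 CPM in SCD members, a ratio of 8.37 (interval 6.30 to 11.4). Ngp was at 19.5 and 161 CPM, a ratio of 8.26 (interval 6.03 to 11.6), and Ltf, which encodes lactoferrin, at 12.0 and 71.9 CPM. Lcn2, which encodes an iron-scavenging lipocalin, was at 26.1 CPM in wild-type and 111 CPM in SCD members, Wfdc21 at 6.01 and 51.9 CPM, and Retnlg at 35.6 and 93.4 CPM. A single wild-type member held 26.8% of the Retnlg UMIs, and without the erythroid-marked members the gene was at 14.7 CPM (wild-type) and 91.3 CPM (SCD), so its ratio went from 2.63 to 6.22. Of the 12 genes of the specific granule list, 7 were above the minimum. Of these, 5 were at least 2-fold higher, against 0.452% of all genes. The median log2 difference was 1.90, or 2.23 without the marked members. Each of the 5 reached the minimum CPM in SCD members only. The minimum therefore favours this count and this median, and both are descriptions. The other 2 were Mmp8, a collagenase, at 66.2 CPM (wild-type) and 106 CPM (SCD), and Csf3r, which lay in the other direction and is described with the lowest genes. Non-dividing monocytes had Camp at 31.4 CPM (wild-type) and 264 CPM (SCD).

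Other cells that should lack neutrophil genes also held more of their RNA in the SCD library. The median share of UMIs from S100a8 and S100a9 was 0.0535% (33 wild-type cells) and 0.401% (319 SCD cells) in cells with at least 10 UMIs of Vpreb1, Vpreb3, Igll1 and Cd79a, which are B lineage genes. In cells with at least 10 UMIs of Siglech, a gene of plasmacytoid dendritic cells, it was 0.0506% (771 cells) and 0.328% (589 cells). In members it was 0.0417% (wild-type) and 0.220% (SCD), which is a description, because the rule had set an upper limit on this share. The part of neutrophil RNA outside cells in these differences was not tested.

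Among the other highest genes were Ctsc, Wfdc17, Trem2, Ms4a6d and Scd2. Ctsc, the cathepsin that activates granule proteases, stood at 298 CPM in wild-type and 679 CPM in SCD members, a ratio of 2.28 (interval 2.10 to 2.48), and at 470 and 865 CPM in non-dividing monocytes. Wfdc17 was at 175 CPM in wild-type and 389 CPM in SCD members, a ratio of 2.22 (interval 1.99 to 2.48), where 1 wild-type member held 20% of its UMIs. Non-dividing monocytes had it at 1030 and 2051 CPM. Trem2, a lipid receptor of phagocytes, was at 27.6 CPM in wild-type and 69.8 CPM in SCD members, a ratio of 2.53 (interval 1.93 to 3.38).

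Ms4a6d was at 44.1 CPM in wild-type and 96.7 CPM in SCD members, a ratio of 2.19 (interval 1.77 to 2.75). Scd2, a fatty acid desaturase, was at 55.1 CPM in wild-type and 126 CPM in SCD members, a ratio of 2.29 (interval 1.89 to 2.79). Unlike Ctsc, Wfdc17, Trem2 and Ms4a6d, it was not higher in the SCD non-dividing class, where it stood at 45.7 CPM (wild-type) and 39.98 CPM (SCD). That contrast between classes was not tested.

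**Figure D4:**
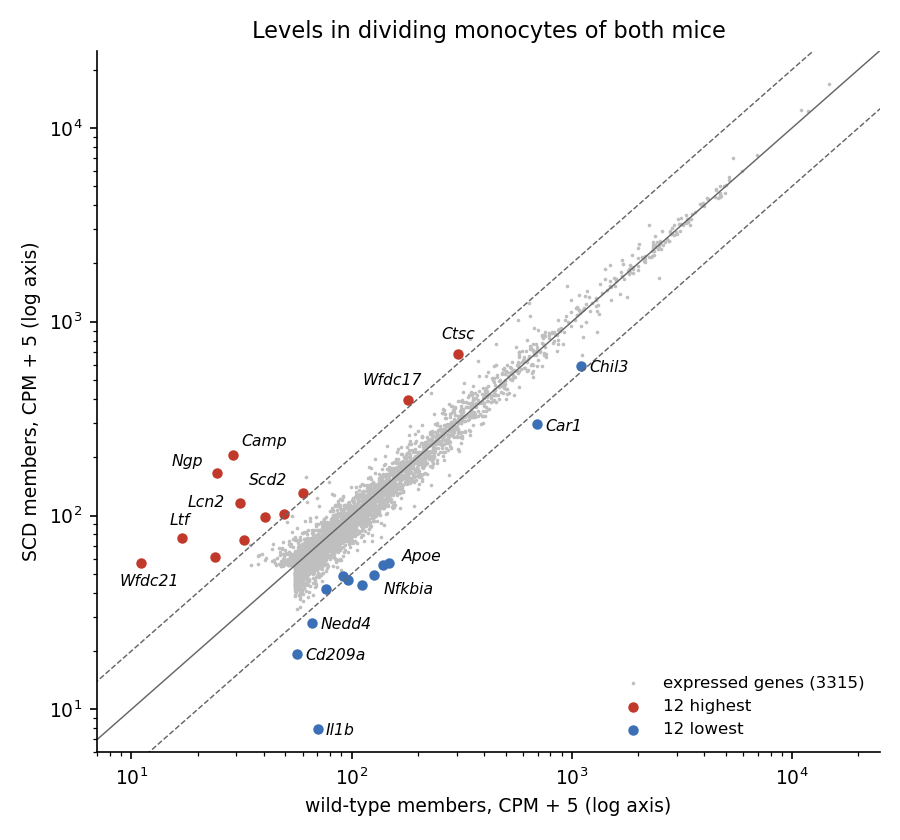
CPM plus 5 of 3315 genes in wild-type (horizontal, log axis) and SCD members (vertical, log axis), with dashed lines at 2-fold and colours for the 12 highest and 12 lowest genes that the naming rule gave. Most genes lie near the diagonal, the median log2 difference is -0.04, and Camp, Ngp and Ltf lie above it while Il1b lies below.

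Among the lowest genes, Il1b, which encodes the cytokine interleukin 1 beta, stood at 65.1 CPM in wild-type and 2.96 CPM in SCD members, a ratio of 0.0455 (interval 0.0324 to 0.0631). A single wild-type member held 26.9% of its UMIs there, and the gene was at 34.5 CPM in wild-type and 2.67 CPM in SCD members without erythroid marking. Non-dividing monocytes had it at 46.8 and 7.56 CPM. Neutrophils had Il1b at 1706 CPM in wild-type and 136 CPM in SCD cells, lower in the same direction. A UMI of Il1b was found in 9 of 69 thinned wild-type members and 0.872% of SCD members, below the 25.2% and 5.42% of neutrophils, and in 24.6% and 5.08% of members without thinning. The part of neutrophil RNA in its difference was not tested. Nfkbia, the inhibitor of NF-kappaB that its signal induces, was at 121 CPM in wild-type and 44.5 CPM in SCD members, a ratio of 0.368 (interval 0.318 to 0.427), and at 195 and 94.6 CPM in non-dividing monocytes. In the wild-type, 1 member held 23.7% of the Nfkbia UMIs. Chil3, a chitinase-like protein of monocytes that descend from granulocyte-monocyte progenitors, was at 1094 and 588 CPM, a ratio of 0.537 (interval 0.513 to 0.563). In non-dividing monocytes Chil3 stood at 1146 CPM (wild-type) and 1063 CPM (SCD).

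Csf3r, the G-CSF receptor and a gene of the specific granule list, stood at 86.7 CPM in wild-type and 43.7 CPM in SCD members, a ratio of 0.504 (interval 0.427 to 0.598). This receptor of neutrophils was at 1708 CPM in wild-type and 328 CPM in SCD neutrophils, and at 156 and 130 CPM in non-dividing monocytes, and the part of neutrophil RNA was not tested here either. Grk3, a kinase of G protein-coupled receptors, was at 71.7 and 36.7 CPM. Cd209a, a lectin of monocyte-derived and dendritic cells, was at 51.6 CPM in wild-type and 14.3 CPM in SCD members, and 58.3% of its wild-type UMIs were in 1 member. Non-dividing monocytes had it at 125 CPM (wild-type) and 12.1 CPM (SCD). Without the richest member of each library its log2 difference was -0.59.

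The levels of the other 6 of the lowest genes moved with the erythroid-marked members, though not every difference did. Car1 was at 690 CPM in wild-type and 290 CPM in SCD members, but at 9.58 and 18.1 CPM without the marked cells, so its direction turned. Apoe was at 143 and 52.1 CPM, and at 14.7 and 40.4 CPM without them, so its direction turned too. Myb was at 133 CPM in wild-type and 50.6 CPM in SCD members, and at 46.6 and 32.5 CPM without them. Vamp5 stood at 106 and 38.6 CPM and Nedd4 at 61.1 and 23.0 CPM, and without the marked cells Vamp5 stood at 7.67 and 6.96 CPM and Nedd4 at 18.5 and 6.53 CPM. The ratio of Nedd4 was 0.376 with and 0.352 without the marked cells, so its difference was as large, at levels below the minimum. Cox6b2 was at 91.2 CPM in wild-type and 41.7 CPM in SCD members, and at 51.1 and 30.9 CPM without them. With at most 5000 genes per cell the direction of Cox6b2 turned, to a log2 difference of 0.12. Without the marked members 3 genes were at least 2-fold lower, of which Cd209a and Nfkbia were among the 9. The other was Chil3, at 1375 CPM (wild-type) and 642 CPM (SCD) with a log2 difference of -1.09, against -0.89 with the marked cells. Il1b and Nedd4 still differed by more than 2-fold, with log2 differences of -2.36 and -1.03, but were then below the minimum of 50 CPM.

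Cell cycle lists differed little between the mice. Of S phase genes 35 were above the minimum and none passed 2-fold in either direction, with a median log2 difference of -0.13 against -0.04 over all genes. Among late genes 44 were above the minimum and none passed 2-fold, with a median of -0.14. Without the erythroid-marked members the S phase median was again -0.13, the late median -0.29 and that of all genes -0.05. The 11 histone genes above the minimum had a median of 0.06 and the 8 cyclins, kinases and their regulators -0.09, with none past 2-fold, and without the marked members these were -0.01 and -0.03. Pcna, the DNA polymerase clamp, was at 369 CPM in wild-type and 319 CPM in SCD members, a ratio of 0.866 (interval 0.802 to 0.937). Cdk1, the mitotic kinase, was at 210 and 179 CPM, a ratio of 0.853 (interval 0.770 to 0.946). Hist1h2ap, a histone H2A gene, was at 2018 CPM in wild-type and 2507 CPM in SCD members, a ratio of 1.24 (interval 1.20 to 1.28). Hmgb2, a chromatin protein of dividing cells, was at 4749 and 4452 CPM. Differences of this size lie outside counting error in several genes, and the spread between mice is unknown.

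Monocyte lists were also close between the mice. Of 30 monocyte identity genes 26 were above the minimum, 1 was at least 2-fold higher (Wfdc17) and none at least 2-fold lower, with a median of 0.18, or 0.07 without the erythroid-marked members. Lyz2 was at 10968 CPM in wild-type and 12412 CPM in SCD members, a ratio of 1.13 (interval 1.12 to 1.15). Ifitm3, an interferon-induced membrane protein, was at 1984 and 2398 CPM, a ratio of 1.21 (interval 1.17 to 1.25). Tyrobp, an adaptor of myeloid receptors, was at 2134 and 2182 CPM, and Ccl9, a chemokine, at 224 and 425 CPM. Among 10 fate transcription factors above the minimum none passed 2-fold and the median was 0.03, or -0.12 over 11 genes without the marked members, so its direction turned. Irf8 stood at 500 CPM in wild-type and 419 CPM in SCD members, Spi1, which encodes PU.1, at 333 and 375 CPM, and Klf4 at 353 and 339 CPM.

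Of the 13 non-classical monocyte genes 4 were above the minimum, none passed 2-fold and the median was -0.62, or -0.76 without the erythroid-marked members. Itgal, the integrin alpha chain of LFA-1, was at 131 CPM in wild-type and 72.6 CPM in SCD members, and Spn, the sialophorin CD43, at 196 and 133 CPM. The median of 12 migration and adhesion receptors was -0.10 and that of 7 growth factor and cytokine receptors -0.07, with none past 2-fold. Without the marked members the first was again -0.10 and the second -0.25 over 8 genes.

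Heme and iron genes, which phagocytes use to recycle red cells, lay in both directions. Of 18 heme and iron genes 7 were above the minimum, none passed 2-fold, 4 were above 0, where 1409 of all 3315 genes were, and the median was 0.21, or 0.16 without the erythroid-marked members. Without the minimum the median of 17 genes was -0.07, so its direction depends on low genes. Ftl1, the ferritin light chain, was at 2225 CPM in wild-type and 3155 CPM in SCD members, a ratio of 1.42 (interval 1.38 to 1.46), and the heavy chain Fth1 at 1704 and 1979 CPM, a ratio of 1.16 (interval 1.12 to 1.20). Lrp1, a receptor of hemopexin-bound heme, was at 48.6 and 94.6 CPM, a ratio of 1.95 (interval 1.58 to 2.41). Blvrb, a biliverdin reductase, was lower, at 149 CPM (wild-type) and 109 CPM (SCD). Without the erythroid-marked members Blvrb was at 47.9 CPM (wild-type) and 50.8 CPM (SCD), so its direction turned.

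Hmox1, the heme oxygenase that opens the heme ring, was below the minimum in members, at 21.0 CPM in wild-type and 41.9 CPM in SCD members, a ratio of 1.99 (interval 1.46 to 2.78). It had a UMI in 10.1% of thinned wild-type members (interval 4.18% to 19.8%) and 18.3% of SCD members (interval 15.5% to 21.4%), against 11.0% and 8.23% of neutrophils. Whether neutrophils express the gene themselves was not tested, so their share is given for comparison only. Without thinning, 34.8% of wild-type and 54.4% of SCD members had a UMI. In non-dividing monocytes Hmox1 was at 233 CPM (wild-type) and 107 CPM (SCD), the other direction, where 36.4% and 33.7% of thinned cells had a UMI. This contrast was not tested. The 12 NRF2 and antioxidant genes above the minimum had a median of 0.11 and none past 2-fold.

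Of 9 glycolysis genes above the minimum all lay above 0, against 1409 of all 3315 genes, and none passed 2-fold. Their median was 0.30, or 0.26 over 10 genes without the erythroid-marked members. Gapdh was at 1170 CPM in wild-type and 1440 CPM in SCD members, a ratio of 1.23 (interval 1.18 to 1.28), and Aldoa at 373 and 523 CPM, a ratio of 1.40 (interval 1.30 to 1.51). Of 9 heat shock genes 1 was above 0, none passed 2-fold and the median was -0.41, or -0.15 without the erythroid-marked members. Hsp90aa1, a chaperone, was at 1299 CPM in wild-type and 883 CPM in SCD members, and at 747 and 618 CPM without the marked cells.

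Interferon response genes had a median of 0.15 over 8 genes with none past 2-fold, and 0.01 without the erythroid-marked members. Immediate early genes, which answer to handling as well as to signals, had a median of -0.17 over 6 genes in members with none past 2-fold, and -0.24 without the marked members. In non-dividing monocytes their median was -0.92, with 5 of 12 genes at least 2-fold lower in the SCD library, against 1.52% of all 3220 genes there. Fos was at 39.1 and 16.7 CPM in members and at 230 (wild-type) and 22.3 CPM (SCD) in non-dividing monocytes. In the non-dividing class Fos thus reached the minimum CPM in the wild-type library only, and the count of 5 is a description. Of 5 inflammatory cytokine and chemokine genes above the minimum, 2 were at least 2-fold lower, against 0.271% of all genes, with a median of -0.31. These 2, Il1b and Nfkbia, reached the minimum CPM in wild-type members only. The minimum therefore favours this count, which is a description. Without the marked members Il1b, 1 of the 2, was below the minimum, and the median of the other 4 was -0.36.

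The comparison of members with non-dividing monocytes describes the selection and is not a test, because division genes chose the classes. Of 3875 genes, 424 were at least 2-fold higher in members in both mice (10.9%) and 233 at least 2-fold lower (6.01%). Higher genes included 33 of 35 S phase, 44 of 44 late and 10 of 11 histone genes measured. Lower genes included 13 of 28 monocyte identity, 13 of 19 interferon response and 6 of 8 non-classical genes, whereas 1 of these 8, Spn, was at least 2-fold higher in members. For Ace, a peptidase of non-classical monocytes, members had 3.51 CPM (wild-type) and 2.29 CPM (SCD), against 120 and 64.3 CPM in the non-dividing class. Without the erythroid-marked members Ace was at 0 CPM (wild-type) and 2.49 CPM (SCD), so the order of the 2 libraries turned. Nothing is read from these counts.

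Members held more UMIs than non-dividing monocytes, and a lower CPM is not a lower number of molecules. The selection itself favours such an excess, because at least 5 division UMIs are reached more easily in deep cells and at most 1 in shallow ones. Median depths were 24892 UMIs in members and 10765 in non-dividing monocytes of the wild-type, and 23199 and 11574 in the SCD library, and the values below are a description. The median gene had 2.65 times as many UMIs per member as per non-dividing monocyte in the wild-type and 2.25 times in the SCD library. Lyz2, at 10968 CPM in wild-type members and 29464 CPM in the non-dividing class, had 317 UMIs per member and 319 per non-dividing cell, and 322 and 306 in the SCD library. Ifitm3 had 57.4 and 57.5 UMIs per cell in the wild-type and 62.2 and 61.3 in the SCD library. Over the monocyte identity list the median ratio of UMIs per cell was 1.18 in the wild-type and 1.20 in the SCD library. Interferon genes had 0.918 and 0.893, non-classical genes 0.515 and 0.573, and heat shock genes 4.99 and 3.90.

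**Figure D5:**
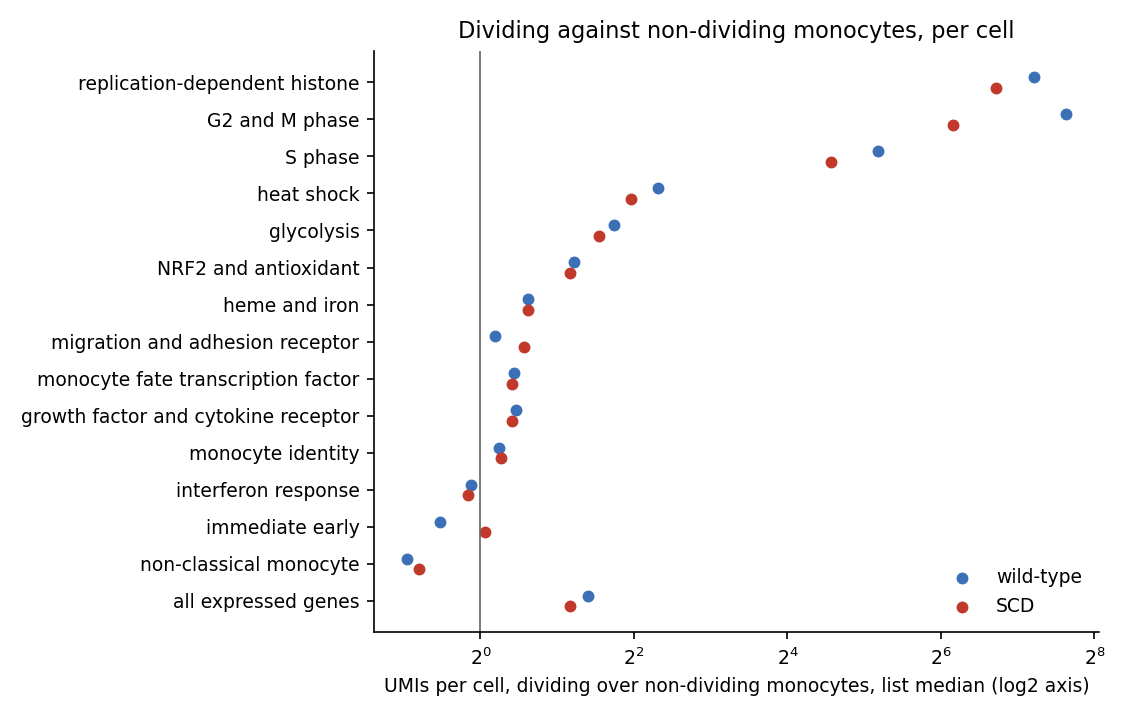
Median ratio of UMIs per cell, members over non-dividing monocytes (log axis), for each gene list in each library. Late cell cycle genes stand at 198 and 71.2, the median of all genes at 2.65 and 2.25, monocyte identity genes near 1, at 1.18 and 1.20, and non-classical genes below 1, at 0.515 and 0.573.

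Markers of other cell types were low in members apart from those named above. B cell markers summed to 12.5 CPM in wild-type and 46.2 CPM in SCD members, with 8 of 9 genes at 0 in the wild-type and none in the SCD library. T and NK cell markers summed to 4.51 and 4.92 CPM, with 6 and 3 of 10 genes at 0. Megakaryocyte markers summed to 2.00 and 0.895 CPM, and basophil and mast cell markers to 5.51 and 3.30 CPM. Macrophage markers, C1qa among them, summed to 31.6 CPM in wild-type and 41.4 CPM in SCD members, conventional dendritic cell markers to 178 and 110 CPM, and plasmacytoid dendritic cell markers to 119 and 137 CPM. Erythroid markers summed to 1134 and 576 CPM, carried mostly by the marked cells. The part of these cells in the differences between mice was not tested, beyond the values given without erythroid-marked members.

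An upper limit on genes per cell acted strongly on dividing cells. More than 5000 genes were found in 33 of 69 wild-type members (47.8%) and 274 of 689 SCD members (39.8%), against 0 of 511 and 3 of 505 non-dividing monocytes. With such a limit 36 wild-type and 415 SCD cells remained, and the ratio of dividing shares of the gate was 5.58 in place of 4.12.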

How the data were processed

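The deposited files hold UMI counts per gene and cell, 1 matrix for each mouse, which the authors made from 3′ droplet libraries with Cell Ranger 4.0.0 on GRCm38.p6. The submitters' processing notes also name Seurat 3.2.3, Scanpy 1.6.0 and R 4.4. No count had been normalized. Kept cells had at least 500 genes, under 15% mitochondrial and under 30% ribosomal protein UMIs. The members and gene lists were chosen with earlier results of these data known. Counts were summed over cells and scaled to 1000000 UMIs (CPM), and ratios carry exact conditional 95% intervals. Log2 differences used a pseudocount of 5 CPM over genes with at least 50 CPM and 20 UMIs in 1 library. The 12 highest and 12 lowest genes were named, without mitochondrial, ribosomal, immunoglobulin, T cell receptor, globin, sex-linked and rule genes, and list members past 2-fold or among the 4 most abundant of a list could be named, and 1 of the 12 highest is not reported here. Genes outside this rule, among them Fos, Hmox1, Lrp1, Ace and Camk2d, were picked after their values were seen. Scrublet in scanpy 1.11.5 called doublets, which stayed in. Shares of cells with a UMI were taken after thinning cells to 5000 UMIs. The scripts ran in Python 3.11.15 with matplotlib 3.10.9, pandas 2.3.3, scipy 1.17.1 and numpy 2.4.6, and the calculations were tested on simulated data.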

Additional observations from a re-analysis of the deposited data

Results flagged for a closer look

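Car1 had a log2 difference of -1.24 between SCD and wild-type members, while in non-dividing monocytes it lay on the other side, at 14.6 CPM (wild-type) and 28.4 CPM (SCD). With 1 mouse per group this opposition was not tested, and without the erythroid-marked members Car1 was higher in SCD members as well. Cells that the report's comparisons leave out carried a signal above the level of the control library in 2 classes. Those that failed only the azurophil granule limit were 1.86% of kept SCD cells, against 0.103% in the wild-type. Those that failed only the S100a8 and S100a9 limit were 1.19%, against 0.0823%. Neither difference was tested.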

How the results depend on the processing

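No paired analysis was possible because only 1 mouse stood for a group, and no replicate could be left out. Of 28 share ratios under alternatives, 25 moved by less than their interval. Of 306 list medians 284 did so, 22 moved and 0 were counted as reversed. A reversal was counted only where the main interval left out 0. Medians near 0 could thus change sign without being counted, as those of the S phase and the heme and iron lists did. Of 192 values of named genes 136 stayed, 51 moved and 5 reversed. With the rule applied after thinning, the ratio of shares was 5.65 over kept cells with at least 5000 UMIs. Without thinning it was 5.54 over the same cells, an alternative chosen after seeing the data, so most of the step from 8.19 comes with the change of cells counted. After thinning, the shares of members with more S phase UMIs were 6.90% (wild-type) and 8.14% (SCD), the S phase median was 0.083, and 96 genes were higher and 19 lower. With at most 5000 genes per cell, the gate ratio was 5.58, the late list median -0.42, and log2 differences were 1.36 for Apoe, 0.76 for Car1 and 0.12 for Cox6b2, all 3 reversed. Without the minimum of 50 CPM, 39 genes were higher and 38 lower and the heme and iron median was -0.070. Lower genes numbered 4 with means of per-cell CPM and 5 with a monocyte sum of at least 5. Leaving out erythroid-marked members, an alternative chosen after seeing the data, gave 3 lower genes, of which Chil3 was not among the 9, and reversed Apoe to 1.21 and Car1 to 0.66. Leaving out the richest cell of each gene, also chosen afterwards, gave Wfdc17 1.38 and Cd209a -0.59. The cause of these shifts was not tested beyond the construction of each alternative. Depth limits low genes, since 69 wild-type members stand against 689.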
